A study of Mus musculus with 9 samples.

Results

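The regions described here are the stretches of open chromatin in the last 3 Mb of the long arm of mouse chromosomes 1 to 19, next to the telomere. They were chosen by position alone. Peaks of all 9 libraries were merged where they overlapped or touched, regions with a peak in at least 2 of 3 libraries of any line were kept, and a kept region was taken when its centre lay within 3 Mb of the end of its chromosome in mm10. This gave 2724 of 95142 regions (2.86%), and the other 92418 regions of the same chromosomes served as the comparison. The libraries came from an assay of chromatin accessibility (ATAC-seq), in which a transposase cuts open DNA, in C3H/10T1/2 cells, an established mouse line of mesenchymal progenitor cells (MPCs). The groups were wild-type (WT) cells, which had received a Cas9 vector with no guide, and clones B10 and G7, knockouts (KO) of Atrx that were each made by CRISPR-Cas9 with a different guide. There were 3 libraries of each line. Each KO line is 1 clone, so a difference of a clone from WT cannot be told apart from a feature of that clone, and the comparisons of B10 and of G7 share their WT libraries. WT is likewise a single control line, so a change in both clones cannot be told apart from a feature of that line. Nothing in the labels says that the 3 libraries of a line came from separate cultures, so p-values measure the spread between libraries, which may be technical.

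Mouse chromosomes carry their centromere close to one end, so that the other, distal end is the tip of the long arm. It closes with an array of the telomere repeat TTAGGG, and the DNA before it, the subtelomere, holds repeats, segmental duplications and, further in, ordinary genes. ATRX is a chromatin remodeller that works with DAXX to deposit a variant of histone H3 at telomeres and other G-rich repeats, and its loss is known from tumours that keep their telomeres by recombination. In mm10 each chromosome ends in a stretch of undetermined bases, so the last assembled base lies 100000 to 150000 bp before the end of the chromosome.

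The libraries held 74643 to 86650 peaks on these chromosomes, and their sequencing depth is unknown from peak lists. A missing peak was therefore read as not detected. In bulk cells, fewer cells with an open site and less opening per cell cannot be told apart. As a check of the label, a peak in all 9 libraries lay over the start site of 7 of 10 mesenchymal marker genes (among them Pdgfra, Pdgfrb, Col1a1, Twist1 and Prrx1), of 0 of 4 haematopoietic and 0 of 4 endothelial genes, of 1 of 4 epithelial genes (Grhl2) and of 2 of 4 neural genes (Tubb3 and Gfap). The markers Ly6a, Nt5e and Thy1 lacked such a peak.

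The outermost regions came first, as they lie next to the telomere. On 10 of the 19 chromosomes (5, 6, 9, 11, 12, 13, 14, 15, 17 and 19) the last region ended within 1 kb of the last assembled base, at 64 bp on chromosome 15 to 732 bp on chromosome 14.

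The region at the tip of chromosome 11 (chr11:121981489-121982335) held a peak in all 9 libraries, at ranks of 25.3, 33.1 and 26.3 in the WT libraries, 17.9, 40.4 and 29.1 in B10, and 22.8, 31.7 and 39.0 in G7. Ranks are percentiles of the −log10 q-value among the peaks of a library, with 100 the strongest. The ranks of the 3 lines overlapped. The tip of chromosome 12 (chr12:120028006-120028528) also held a peak in every library, with WT ranks of 43.2 to 47.7, B10 ranks of 33.8 to 42.3 and G7 ranks of 43.8 to 45.4. There the B10 libraries lay below those of the other lines. In the test of peak strength given below, this region was called weaker in B10 (log2 difference -0.37, limma adjusted p = 0.0386). It was not called in G7 (-0.01, adjusted p = 0.962). No other tip region within 1 kb of the last base had a peak in all 9 libraries, and most were weak where present. On chromosome 5 (chr5:151734095-151734557) a peak was held by each of the 3 WT libraries and by 2 libraries of each clone, and on chromosome 17 (chr17:94886492-94887124) by each WT library and by 1 library of each clone. The tip of chromosome 6 (chr6:149585420-149586439) was the only outermost region gained in both clones. It held a peak in B10 replicates 2 and 3 (ranks 8.9 and 17.5), in G7 replicates 2 and 3 (ranks 24.1 and 14.2) and in no WT library. Here gain in a clone means a peak in 2 or 3 of its libraries and none in WT, and loss means a peak in 2 or 3 WT libraries and none in the clone. The outermost region of chromosome 2 (chr2:181999401-181999701), in an intron of the gene model Gm14496, was lost in G7 alone, with ranks of 22.4, 39.0 and 20.2 in B10, 30.9, 59.0 and 64.8 in WT, and no peak in G7.

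Sequence copies matter for how well reads can be placed at the tips. The share of 32-base words of a region that occur once on the assembled chromosomes was 100% for the tips of chromosomes 5 and 12, 64.0% for chromosome 11, 85.2% for chromosome 6 and 50.2% for chromosome 17. Words of the chromosome 11 tip also occurred in the last 100 kb of assembled sequence of 16 other chromosomes. How the aligner placed such reads is not given in the sources used here, so values of these tips are uncertain. On the other 9 chromosomes the outermost region lay further in. Among these was the promoter of A630089N07Rik on chromosome 16 (ranks 96.9 to 98.8). Another was a region on chromosome 1 within 3 kb of a start of the gene model Gm27940 (chr1:195241284-195241978, ranks 99.3 to 99.9).

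**Figure D1:**
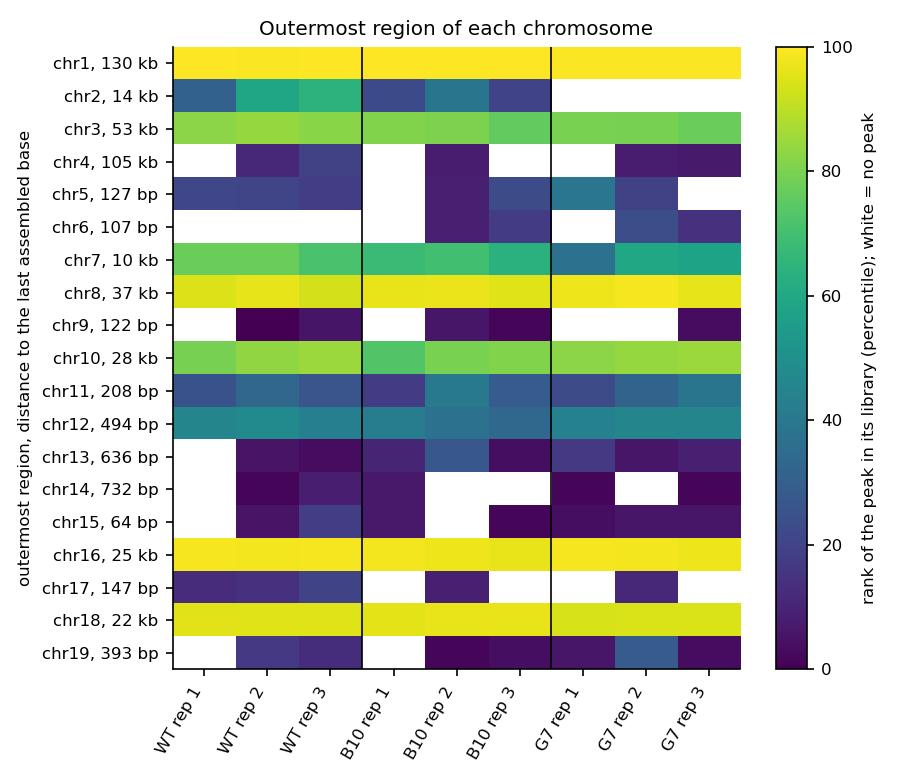
Rank of the peak (percentile of −log10 q-value in its own library, colour scale from 0 to 100) in the outermost region of each of 19 chromosomes (rows, with the distance to the last assembled base) in the 9 libraries (columns); white marks no peak. The tips within 1 kb of the last base have low ranks or gaps, while the outermost regions of chromosomes 1, 8, 16 and 18 rank above 90 in all 9 libraries.

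The ends as a whole were richer in open regions than the rest. There were 49.9 regions per Mb of known bases in the last 3 Mb and 39.5 in the rest of the same chromosomes, a ratio of 1.26, and the end was denser on 13 of 19 chromosomes. The ratio was 2.09 on chromosomes 7 and 11, 1.92 on chromosome 15 and 1.88 on chromosome 9, but 0.180 on chromosome 18, 0.232 on chromosome 17 and 0.318 on chromosome 3. Protein-coding genes were denser too, at 13.3 per Mb in the ends and 8.58 in the rest. Per gene, the ends together held 3.76 regions against 4.60, while on 11 of 19 chromosomes the end held more per gene than the rest. The end of chromosome 10 held 129 genes and 150 regions, whereas that of chromosome 17 held 2 genes and 33 regions. From the end inwards, the density was 37.3 per Mb in the first 0.5 Mb and 54.1 in the next 0.5 Mb.

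Regions of the ends lay at a promoter, within 3 kb of a start site, more often than the rest (37.4% against 30.7%, higher on 11 of 19 chromosomes), and less often in an intron (27.2% against 32.1%). Their median GC content was 49.5% against 47.8% (higher on 9 of 19 chromosomes), and their median mean rank 44.3 against 41.9. A peak in all 9 libraries was present in 1398 of them (51.3%), against 48.7% of the rest. Exact motif matches within 100 bp of the summit, on either strand, were counted as a description. The AP-1 site TGACTCA was found in 462 regions of the ends (17.0%, against 18.4% of all regions). The core of the CTCF site (CCAC, any base, AG, any 2 bases, GGC) was found in 135 (4.96%, against 4.26% of all). Runs of G of the kind that can fold into a quadruplex (4 runs of GGG, each separated by 1 base) were found in 9 (0.330%, against 0.363% of all). A tandem pair of TTAGGG units lay near the summit of 0 regions of the ends and of 11 regions of all. A missing match says only that these letters are not in this window.

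The strongest region of each end, by mean rank, was mostly a promoter and held a peak in all 9 libraries. Among them were the promoters of Rps21 (a ribosomal protein) on chromosome 2, Pa2g4 on chromosome 10, Hmgcs1 (an enzyme of cholesterol synthesis) on chromosome 13, Copz1 (a coat protein of transport vesicles) on chromosome 15, Hmgn1 (a nucleosome-binding protein) on chromosome 16 and Prdx3 (a mitochondrial peroxiredoxin) on chromosome 19. Exceptions were an intergenic region 54.0 kb from Irf2bp2 on chromosome 8 and a region in the untranslated part of Lars2, the mitochondrial leucyl-tRNA synthetase, on chromosome 9. In the Lars2 region 37.7% of words occurred once, so its signal cannot be assigned to that place alone.

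Next, the share of a library's peaks that lay in the last 3 Mb was compared between the lines. It was 2.94%, 2.97% and 2.96% in the WT libraries, 2.81%, 2.83% and 2.81% in B10, and 3.01%, 2.99% and 3.05% in G7. All B10 libraries lay below and all G7 libraries above the WT libraries. The mean number of peaks there was 2364 in B10 (SD 113), 2306 in G7 (SD 33.5) and 2311 in WT (SD 39.0). The lower share of B10 was thus not a lower mean count. The difference from WT was -0.143 percentage points in B10 and 0.0545 in G7 (exact two-sided permutation p = 0.1 each, adjusted p = 0.1, the smallest p that 3 against 3 libraries allow). Paired by replicate number, the exact sign permutation gave p = 0.25, the smallest that 3 pairs allow. When each library was cut to the same number of peaks, the differences were -0.128 and 0.0732. For the last 1 Mb they were -0.0239 (exact permutation p = 0.3) and 0.0585 (exact permutation p = 0.1).

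**Figure D2:**
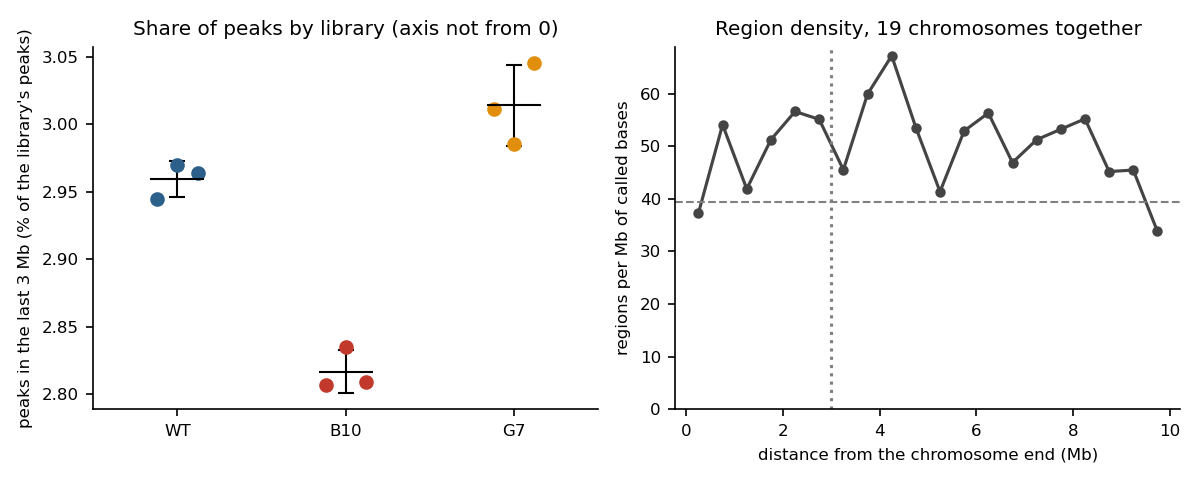
Left, the share of a library's peaks that lie in the last 3 Mb of chromosomes 1 to 19 (percent, axis not from 0), 1 point per library, with the mean and SD (n = 3) of each line; B10 (2.81% to 2.83%), WT (2.94% to 2.97%) and G7 (2.99% to 3.05%) do not overlap. Right, regions per Mb of known bases in bins of 0.5 Mb from the end of the 19 chromosomes together; the dotted line is at 3 Mb and the dashed line is the density of the rest (39.5).

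Peak presence changed in both directions at the ends. In B10, 202 of the 2724 regions were gained (7.42%, against 10.4% of all regions) and 207 were lost (7.60%, against 7.59% of all). In G7, 168 were gained (6.17%, against 5.61% of all) and 180 were lost (6.61%, against 7.43% of all). In both clones 68 were gained (2.5%, against 2.93% of all) and 100 were lost (3.67%, against 4.37% of all). Apart from the lower share gained in B10, these shares were close to those of all regions. The counts moved when a library was left out, in part because a line with 2 libraries must then hold a peak in each. The share gained in B10 was 4.02% without B10 replicate 2, 4.59% without B10 replicate 1 and 12.2% without WT replicate 1. The share gained in G7 was 3.64%, 3.84% and 3.95% without G7 replicates 1, 2 and 3 and 9.44% without WT replicate 1. Leaving out WT replicate 2 gave lost shares of 4.33% in B10 and 3.41% in G7, and leaving out WT replicate 3 gave 4.46% and 4.0%. In both clones, 4.87% were gained without WT replicate 1, 1.53% without B10 replicate 2 and 1.65% without G7 replicate 1, and the lost share was 1.88% and 2.06% without WT replicates 2 and 3.

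Regions lost in both clones held an AP-1 site in 24 of 100 cases and regions gained in both in 5 of 68 (7.35%), beside 17.1% of the regions with a peak in all 9 libraries. In the rest of the chromosomes the shares were 28.5% of 4054 lost and 11.4% of 2721 gained regions. The median rank was 20.4 for lost, 25.7 for gained and 72.4 for shared regions. At single ends the counts were uneven. On chromosome 7, G7 gained 36 of 220 regions (16.4%, against 4.51% of the rest of that chromosome) and lost 6 (2.73%, against 7.29%). There B10 gained 13 (5.91%, against 6.95%) and lost 19 (8.64%, against 7.69%), near the shares of the rest. On chromosome 17, B10 gained 14 of 33 regions (42.4%, against 12.2% of the rest) and lost 0 (against 5.80%). There G7 gained 1 (3.03%, against 3.73%) and lost 3 (9.09%, against 8.24%), near the shares of the rest. On chromosome 12, G7 gained 12 of 78 regions (15.4%, against 7.53% in the rest of the chromosome) and lost 0 (against 6.69%). On chromosome 15, B10 gained 14 of 299 regions (4.68%, against 10.8% in the rest) and lost 29 (9.70%, against 7.16%). G7 gained 10 there (3.34%, against 5.83%) and lost 26 (8.70%, against 7.08%). On chromosome 9, both clones gained 3 regions (1.58%, against 2.52% in the rest) and lost 14 (7.37%, against 4.68%).

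Because of these uneven ends, the share of an end's regions that held a peak was compared with the same share in the rest of its chromosome, for each library. This measure was chosen after the data were seen. It was tested with limma (Benjamini-Hochberg adjustment) over 781 windows of 3 Mb with at least 10 regions, tiled from the distal ends. Such shifts were common, as 49.2% of all windows were called in B10 and 32.8% in G7. Regions can be kept through the peaks of a single line, which raises the share of that line by construction. The p-values of this measure do not account for that. Of the 19 ends, 2 were called higher and 5 lower in B10, and 4 higher and 6 lower in G7. With the replicate number as a block, 10 and 11 ends were called (53% and 35.2% of all windows). The ends added by the block were all lower relative to the rest, those of chromosomes 9, 10 and 18 in B10 (-5.69, -6.44 and -13.6 points, limma adjusted p = 0.0466, 0.0201 and 0.0081) and that of chromosome 9 in G7 (-6.29, adjusted p = 0.045). At the end of chromosome 10 the share itself was higher in B10 (84.7%) than in WT (80.0%). Without replicate 3 of every line, 5 ends were called in G7, and the share of all windows called in that setting is not given here.

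The widest shift lay at the end of chromosome 17, which has few genes and whose strongest region is the promoter of Mettl4. Of its 33 regions, 87.9%, 90.9% and 90.9% held a peak in the B10 libraries, 48.5%, 48.5% and 54.5% in WT, and 36.4%, 36.4% and 30.3% in G7. The 3 lines did not overlap. The 14 regions gained in B10, which by definition hold no WT peak, are among these 33. Relative to the rest of the chromosome, B10 exceeded WT by 31.0 percentage points (SE 2.43, limma adjusted p = 3.93e-06) and G7 differed by -12.4 (SE 2.43, adjusted p = 0.0032). The difference between the clones was 43.4 points (SE 2.43, limma adjusted p = 1.97e-07). This was not limited to the tip. In the window from 3 to 6 Mb, the mean share over 69 regions was 89.9% in B10, 20.8% in WT and 17.4% in G7, and from 6 to 9 Mb the lines were at 79.0%, 81.2% and 75.4%. By its shift in B10, the end stood at place 39 of the 781 windows.

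At the end of chromosome 7, which carries an imprinted cluster and the genes around Ccnd1, the G7 libraries stood apart. A peak was held by 91.4%, 89.5% and 88.6% of its 220 regions in G7, by 70.0%, 74.5% and 70.9% in WT and by 68.2%, 70.5% and 70.5% in B10. The 36 regions gained in G7, which by definition hold no WT peak, are among these 220. Relative to the rest of the chromosome, G7 was 19.9 points above WT (SE 1.90, limma adjusted p = 6.77e-05), and the end stood at place 10 of the 781 windows by its shift in G7. B10 differed by -2.51 (SE 1.90, adjusted p = 0.295), and the clones differed by -22.4 points (limma adjusted p = 6.62e-06). The next window inwards, from 3 to 6 Mb, was at 87.7% in G7, 76.3% in WT and 70.8% in B10. From 6 to 9 Mb the mean shares were 76.0%, 82.2% and 79.8%.

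The end of chromosome 12 was also higher in G7. The G7 libraries held a peak at 78.2%, 85.9% and 88.5% of its 78 regions, the WT libraries at 65.4%, 67.9% and 69.2% and the B10 libraries at 64.1%, 74.4% and 66.7%, a relative difference of 13.3 points in G7 (SE 2.62, limma adjusted p = 0.00336) and of 1.69 in B10 (adjusted p = 0.629). The end of chromosome 6 was the only one called higher in both clones. Its 162 regions held a peak at 61.1%, 61.7% and 63.0% in WT, 80.9%, 87.7% and 80.2% in B10, and 75.9%, 75.9% and 74.1% in G7. Relative to the rest of the chromosome, the differences were 6.50 in B10 (limma adjusted p = 0.00833) and 9.59 in G7 (adjusted p = 0.00165). The ends of chromosomes 2, 4 and 15 were called lower in both clones. On chromosome 4 the relative difference was -11.1 points in B10 and -10.3 in G7 (SE 2.15 each, limma adjusted p = 0.00169 and 0.00475), with 84.4%, 88.1% and 89.6% of 135 regions in WT, 77.0%, 79.3% and 80.0% in B10, and 78.5%, 78.5% and 77.8% in G7. On chromosome 2 it was -10.3 and -6.96, and on chromosome 15, -7.98 and -5.76.

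**Figure D3:**
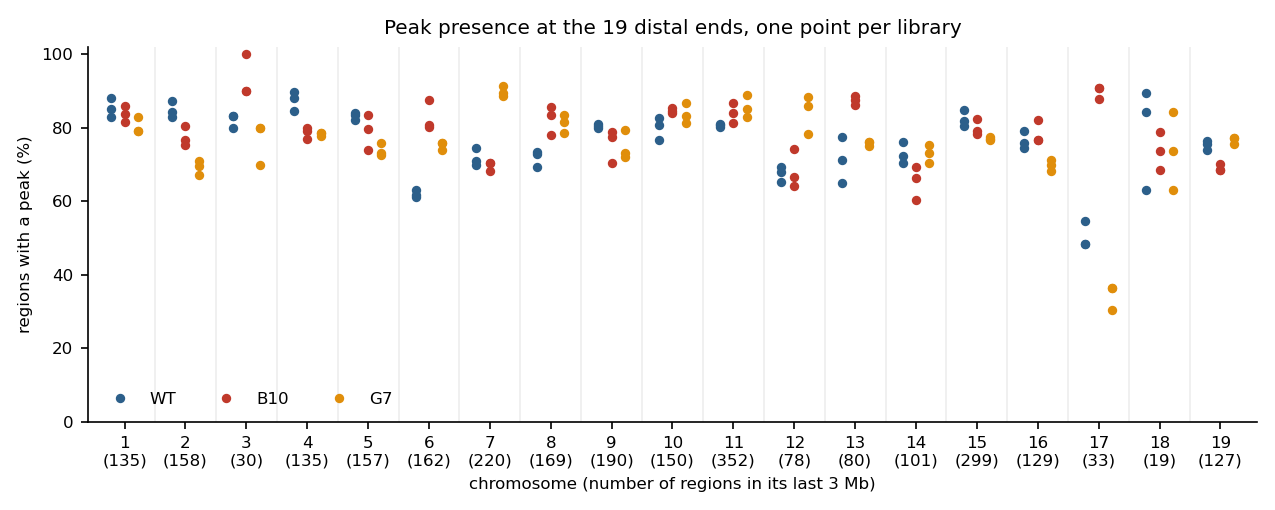
Share of the regions in the last 3 Mb of each chromosome that hold a peak (percent, axis from 0), 1 point per library, coloured by line; the number of regions is under each chromosome. At the end of chromosome 17 the B10 libraries are near 90% and the other lines below 55%, and at the end of chromosome 7 the G7 libraries lie above the other 6.

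**Figure D4:**
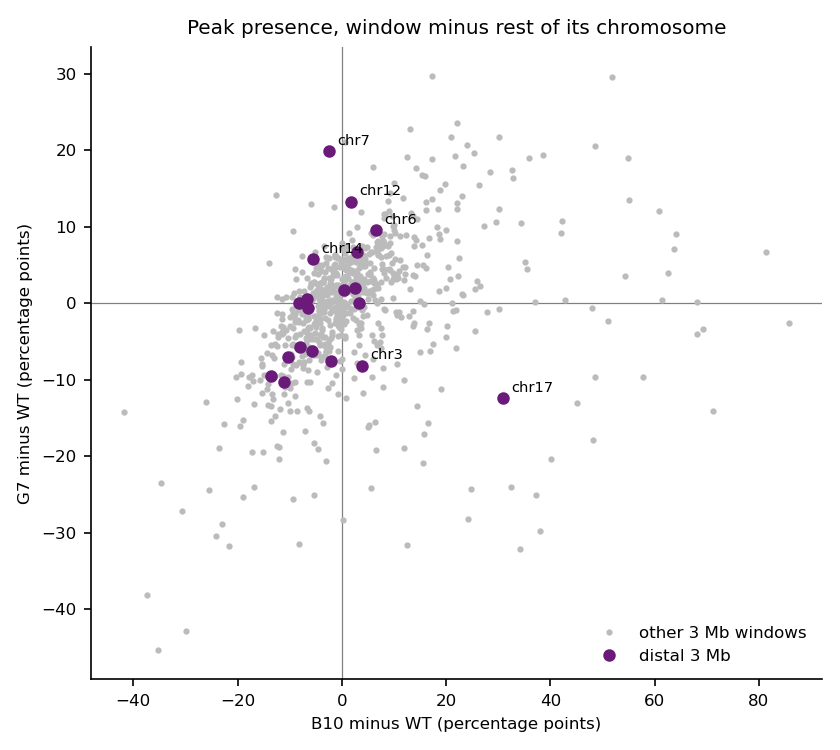
Difference from WT of the share of regions with a peak, window minus the rest of its chromosome, in percentage points, for B10 (horizontal axis) and G7 (vertical axis); purple points are the 19 distal ends and gray points the other 3 Mb windows. The ends lie within the range of the other windows, with chromosome 17 far to the right (31.0 in B10) and chromosome 7 at the top (19.9 in G7).

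Peak strength was compared in the 1398 regions of the ends with a peak in all 9 libraries. The measure was the log2 fold enrichment of a peak over its background, with each library's median set to 0. It differs from presence, as a ratio to the background around a peak need not move with the number of fragments, while the q-value that decides presence can. The median log2 difference from WT was 0.04 in B10 and 0.03 in G7, beside 0.03 and 0.02 for the shared regions of the rest. In the test across 46449 shared regions (limma with Benjamini-Hochberg adjustment), B10 had 44 stronger (3.15%, against 3.46% of all) and 37 weaker regions at the ends (2.65%, against 3.08%). G7 had 26 stronger (1.86%, against 1.77%) and 19 weaker (1.36%, against 1.38%). In both clones 14 were stronger (1.0%, against 1.16%) and 8 were weaker (0.572%, against 0.618%). The shares at the ends were near those of all shared regions. With the replicate number as a block the counts rose to 99 and 84 in B10 (7.98% and 7.06% of all regions) and to 64 and 43 in G7 (4.35% and 3.59% of all). Without replicate 2 or without replicate 3 of every line, limma called 0 regions at the ends and 0 of all shared regions in either clone, with 140 to 180 at an unadjusted p under 0.05. Without replicate 1 of every line, 5.92% were stronger and 5.92% weaker in B10. Single libraries moved the counts as well. The share stronger in B10 was 1.54%, 1.56% and 1.48% without B10 replicates 1, 2 and 3, 5.43% without WT replicate 1, and 1.06% and 1.54% without WT replicates 2 and 3. The share stronger in G7 was 0.420%, 0.496% and 0.212% without G7 replicates 1, 2 and 3, 1.13% without B10 replicate 3, and 0.353% and 0.419% without WT replicates 2 and 3. The share weaker in B10 lay between 1.56% and 1.75% without a B10 library and was 0.989% and 1.12% without WT replicates 2 and 3, and the share weaker in G7 was 0.495% and 0.489% without those 2 libraries. Which single regions were called thus depended on the libraries included.

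Among the regions stronger in both clones, the largest mean rise was in an intron of Tmtc1, an enzyme that adds mannose to proteins, on chromosome 6 (chr6:148384071-148385191). Its fold enrichment was 7.81, 6.69 and 3.5 in the WT libraries, 10.8, 11.4 and 11.6 in B10, and 14.0, 12.9 and 14.3 in G7. All KO libraries exceeded all WT libraries, with log2 differences of 1.01 in B10 and 1.37 in G7 (SE 0.25 each, limma adjusted p = 0.0485 and 0.0257). An intron of Nrp1, a co-receptor for semaphorins and vascular growth factors, on chromosome 8 (chr8:128391272-128392205) had 5.21, 7.27 and 6.05 in WT, 12.2, 12.5 and 10.7 in B10, and 9.26, 10.4 and 10.6 in G7 (log2 differences 0.96 and 0.81, SE 0.12, limma adjusted p = 0.00419 and 0.0136). Another member called in both clones was an intergenic region 160.0 kb from Zranb2 on chromosome 3 (1.32 and 0.85). A region within 3 kb of starts of the noncoding Gm32250 and Gm37334 on chromosome 1, 56.4 kb from Cd34, was called too (0.86 and 0.99). So was an intron of Rptor, a subunit of the growth-regulating mTOR complex, on chromosome 11 (0.76 and 0.89). In these 3 regions too, all KO libraries lay above all WT libraries.

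The last of the 6 lies 4566 bp from the last assembled base of chromosome 11 (chr11:121977374-121977977), inside the subtelomere. Its fold enrichment was 4.37, 5.39 and 6.85 in the WT libraries, 9.20, 10.3 and 10.7 in B10, and 9.60, 8.31 and 7.56 in G7. All KO libraries lay above all WT libraries, while B10 and G7 overlapped. The log2 differences were 0.90 in B10 and 0.73 in G7 (SE 0.16 each, limma adjusted p = 0.0139 and 0.0453). Of its 32-base words, 53.1% occurred once and the most frequent occurred 6 times, so its signal cannot be assigned to that place alone. The 200 bases around its strongest summit are shown. Among the regions that limma called in both clones, this is the nearest to a telomere. Sequences here and in the following paragraphs are read on the plus strand of mm10 (GRCm38), and none of them overlaps an exon of GENCODE M21.
Subtelomere of chromosome 11 (chr11:121977543-121977742): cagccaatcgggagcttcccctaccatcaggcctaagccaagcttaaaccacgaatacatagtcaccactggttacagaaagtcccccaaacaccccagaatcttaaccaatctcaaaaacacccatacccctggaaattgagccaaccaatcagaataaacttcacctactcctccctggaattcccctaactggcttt

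Among the regions weaker in both clones, an intergenic region 74.8 kb from Bace2, a protease of the beta-secretase family, on chromosome 16 (chr16:97281473-97282336) had a fold enrichment of 14.7, 13.6 and 14.0 in WT, 4.98, 6.10 and 4.21 in B10, and 4.94, 7.33 and 8.18 in G7. All KO libraries lay below all WT libraries, with log2 differences of -1.47 and -0.99 (SE 0.19, limma adjusted p = 0.00474 and 0.0341). An intron of Hhat, which attaches a fatty acid to Hedgehog proteins, on chromosome 1 (chr1:192752449-192753571) had 10.2, 13.0 and 12.8 in WT, 5.29, 8.0 and 8.39 in B10, and 4.75, 4.85 and 5.29 in G7 (-0.73 and -1.17, SE 0.16, limma adjusted p = 0.0334 and 0.00945). Both hold an AP-1 site near the summit. So does a region within 3 kb of a start of Gm11792, 9.91 kb from Sectm1a on chromosome 11 (-0.65 and -0.73). The promoter of Hrh3, a histamine receptor, on chromosome 2 was weaker by -0.76 and -0.58. The region of the largest mean fall, on chromosome 11 and 9.03 kb from Hmga1b (-1.12 and -1.61), is 89.1% repeat and 27.3% of its words occur once, so its place is uncertain. The sequences around the summits of the Bace2 and Hhat regions are given with the AP-1 site in capitals.
Near Bace2 (chr16:97281912-97282111): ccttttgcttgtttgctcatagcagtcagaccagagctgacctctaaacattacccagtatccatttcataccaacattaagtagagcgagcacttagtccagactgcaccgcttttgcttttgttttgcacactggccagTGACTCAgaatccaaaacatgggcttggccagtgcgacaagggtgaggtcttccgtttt
Intron of Hhat (chr1:192752715-192752914): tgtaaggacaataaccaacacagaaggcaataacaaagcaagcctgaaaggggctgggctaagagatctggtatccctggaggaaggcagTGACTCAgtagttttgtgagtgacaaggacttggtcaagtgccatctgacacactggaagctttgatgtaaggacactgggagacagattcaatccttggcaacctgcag

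**Figure D5:**
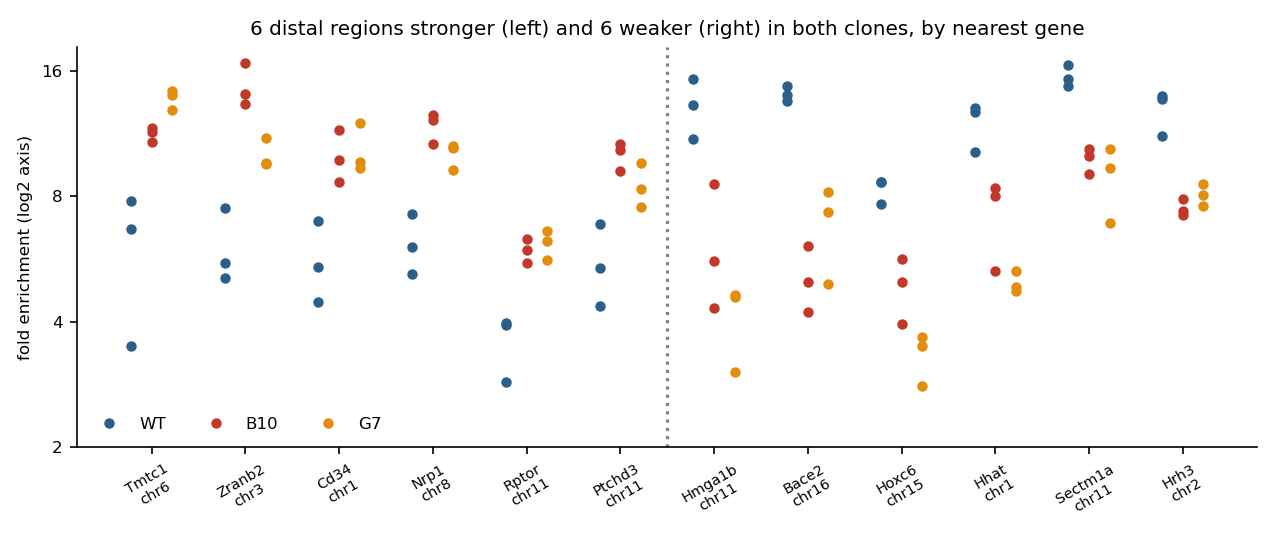
Fold enrichment (log2 axis) in the 9 libraries, 1 point per library coloured by line, of the 6 distal regions with the largest mean rise and the 6 with the largest mean fall among those called in both clones, named by the nearest protein-coding start. In each of the 12 regions the 6 KO libraries lie on one side of the 3 WT libraries, as the choice of regions favours.

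Windows of 3 Mb were compared by the median log2 fold enrichment of their shared regions. Of the 19 ends, limma called 0 in B10 and 0 in G7, while 7.21% and 3.07% of all 749 windows were called. At an unadjusted p under 0.05 there were 1 and 5. The nearest were the end of chromosome 5 in B10 (-0.16, SE 0.04, limma adjusted p = 0.0513) and that of chromosome 7 in G7 (0.16, SE 0.04, adjusted p = 0.051). With the replicate block, both were called (limma adjusted p = 0.013 and 0.0387), and so were the ends of chromosomes 3 (-0.20, adjusted p = 0.0379) and 17 (-0.35, adjusted p = 0.0379) in G7, beside 11.3% and 9.21% of all windows in B10 and G7. The shift of chromosome 17 rests on 7 shared regions. As a difference from the rest of the chromosome, limma again called 0 of the 19 ends in each clone (3.07% and 1.6% of all windows), with 2 and 5 at an unadjusted p under 0.05. With the block the same 4 ends were called, chromosome 5 in B10 (-0.13, limma adjusted p = 0.0389) and chromosomes 3, 7 and 17 in G7 (-0.21, 0.17 and -0.36, adjusted p = 0.04, 0.0425 and 0.0399), beside 9.08% and 6.41% of all windows. At the end of chromosome 17, the median strength of the shared regions in B10 differed from WT by -0.01 (SE 0.11), while peak presence was higher there by the amount given above.

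A peak in every KO library and in no WT library was seen at 22 regions (0.808%, against 1.07% of all), and the reverse at 40 (1.47%, against 1.63% of all). The promoter of Slc16a3, a lactate exporter, on chromosome 11 (chr11:120950543-120951470) held ranks of 78.6, 79.2 and 76.7 in B10 and 49.9, 51.1 and 52.3 in G7. The promoter of Pomgnt2, which glycosylates dystroglycan, on chromosome 9 had ranks of 61.6, 67.0 and 67.8 in B10 and 58.8, 32.7 and 45.3 in G7. On the end of chromosome 7, a region near a start of Cttn, the actin regulator cortactin, had ranks of 32.8 to 59.5, and that at LTO1 had 72.9 to 94.8. The list was completed by the promoter of Dgka, a diacylglycerol kinase, on chromosome 10 (29.6 to 49.1) and an intron of the polarity gene Pard3 on chromosome 8 (29.3 to 48.2). Of these 22 regions 1 held an AP-1 site near the summit.

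On the WT side, the promoter of Agrn, a proteoglycan of the neuromuscular junction, on chromosome 4 ranked from 91.7 to 96.7. A start of Isg15, an interferon-induced modifier, lies within 3 kb of this region. An intron of Shtn1, 23.4 kb from Eno4, on chromosome 19 (chr19:58978434-58979355) had ranks of 77.9, 80.3 and 82.9. Others lay in an intron of Shank2, a synaptic scaffold, on chromosome 7 (59.7 to 70.8), at the noncoding 4930500F04Rik on chromosome 5 (57.4 to 66.0), 12.5 kb from Baiap2 on chromosome 11 (52.5 to 65.3) and at the noncoding 9530059O14Rik on chromosome 9 (48.6 to 69.0). An AP-1 site was found in 11 of the 40 regions (27.5%). Sequences of 3 regions that do not overlap an exon are given around the summit. The Shtn1 stretch holds 2 AP-1 sites and the 4930500F04Rik stretch 1 match to the CTCF core (both in capitals, as found on either strand), and the Pard3 stretch holds neither.
Intron of Shtn1, WT only (chr19:58978760-58978959): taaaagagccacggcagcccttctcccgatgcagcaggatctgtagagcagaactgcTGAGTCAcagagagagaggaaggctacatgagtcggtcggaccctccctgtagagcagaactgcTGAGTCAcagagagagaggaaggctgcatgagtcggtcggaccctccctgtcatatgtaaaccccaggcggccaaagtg
At 4930500F04Rik, WT only (chr5:149851056-149851255): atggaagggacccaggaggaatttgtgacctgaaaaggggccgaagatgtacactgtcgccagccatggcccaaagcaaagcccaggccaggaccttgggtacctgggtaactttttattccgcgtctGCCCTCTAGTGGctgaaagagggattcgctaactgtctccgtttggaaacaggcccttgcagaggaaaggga
Intron of Pard3, KO only (chr8:127228442-127228641): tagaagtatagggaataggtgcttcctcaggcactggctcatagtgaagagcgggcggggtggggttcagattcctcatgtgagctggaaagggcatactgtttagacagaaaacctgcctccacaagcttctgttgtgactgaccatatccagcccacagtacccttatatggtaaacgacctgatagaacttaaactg

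Gene groups that lie in the last 3 Mb were then followed by the regions within 3 kb of their start sites. Their counts are to be read beside the shares of all regions given above, 2.93% gained and 4.37% lost in both clones, and 3.46% stronger and 3.08% weaker in B10 and 1.77% and 1.38% in G7 among shared regions. The list of mesenchymal lineage genes had 27 genes in the ends, of which 24 had a region (52 regions, 34 of them shared). Of these regions 1 was gained and 1 lost in both clones, and limma called 2 stronger and 1 weaker in B10 and 1 stronger in G7. The median log2 difference was 0.04 in B10 and 0.07 in G7, beside 0.03 and 0.02 for all shared regions. The region called in both clones lay at Stard13, an inhibitor of RhoA signalling, on chromosome 5 (chr5:151095698-151096756), with a fold enrichment of 5.21, 4.66 and 4.75 in WT, 7.42, 6.99 and 9.71 in B10, and 8.78, 6.48 and 8.64 in G7 (log2 differences 0.73 and 0.79, SE 0.16, limma adjusted p = 0.0296 and 0.0338). The start of Gdf11, a ligand of the TGF-beta family, was stronger in B10 (0.42, limma adjusted p = 0.0224) and had 0.29 in G7 (adjusted p = 0.117). The start of the homeobox gene Emx2 was weaker in B10 (-0.55, limma adjusted p = 0.0457) and had 0.23 in G7 (adjusted p = 0.457), with a difference between the clones of -0.78 (limma adjusted p = 0.0271). A region at a start of Sp7, the osteoblast factor osterix, held no peak in B10 but one in 2 G7 and 3 WT libraries. With the replicate block, a region at Col9a3, a collagen of cartilage, was also called stronger in B10 (0.81, limma adjusted p = 0.0437).

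The list of telomere and heterochromatin genes, 10 in the ends, had a region at every gene, among them Rtel1, a helicase that unwinds telomere loops, Cbx5, which encodes the heterochromatin protein HP1 alpha, and Smarcc2, a subunit of a chromatin remodeller. Of their 18 regions 16 were shared, 0 were gained or lost in a clone, and limma called 0 stronger or weaker in either clone (at an unadjusted p under 0.05, 2 in B10 and 1 in G7). With the replicate block, a region at Cbx5 was called stronger in B10 (0.26, limma adjusted p = 0.0464). The median log2 difference of the shared regions was 0.07 in B10 and 0.04 in G7, and the median mean rank of the list was 89.3, beside 41.9 for all regions. The list of proliferation and oncogenes had a region at 18 of 19 genes (38 regions, 32 shared), of which 1 was gained and 1 lost in both clones and limma called 1 stronger in each clone, with median log2 differences of 0.08 and 0.06. At Fgf4 on chromosome 7 the fold enrichment was 7.49, 7.27 and 7.96 in WT, 8.72, 7.07 and 7.78 in B10, and 13.4, 11.2 and 10.3 in G7 (log2 difference 0.71 in G7, limma adjusted p = 0.0234, and 0.07 in B10, adjusted p = 0.798). The clones differed there by -0.64 (B10 minus G7, limma adjusted p = 0.0439). The 3 regions at Ccnd1, which encodes cyclin D, held a peak in all 9 libraries, with log2 differences of at most 0.23 and no call. With the block, limma also called 2 regions at the chloride channel gene Ano1 stronger in G7 (0.41 and 0.59, adjusted p = 0.0172 and 0.0451). The first of these (chr7:144635650-144636731) was the region called stronger in B10 without the block (limma adjusted p = 0.0334, and 0.00492 with it). At the kinase gene Grk5, 1 region was called in B10 with the block (0.23, limma adjusted p = 0.0496).

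The imprinted cluster of chromosome 7 had 29 regions at 16 of 19 genes, of which 21 were shared, with 0 gained or lost in both clones, 2 stronger and 1 weaker in B10 and 1 stronger in G7, and median log2 differences of 0.07 in each clone. A region near a start of Osbpl5, an oxysterol-binding protein, rose in both clones (0.85 and 0.70, limma adjusted p = 0.00145 and 0.00493), and the start of Kcnq1ot1, the noncoding RNA that silences the cluster, had 0.13 and 0.07 (adjusted p = 0.375 and 0.734). With the block, a region at Cd81, which encodes a tetraspanin, was called weaker in both clones (-0.69 and -0.61, limma adjusted p = 0.00458 and 0.0109), and further calls came at Trpm5 in B10 (-0.62) and at Tspan32 and Tnfrsf22 in G7 (0.67 and 0.52). The Hoxc cluster on chromosome 15 had 11 regions at 6 of 10 genes, of which 1 was lost in both clones, and of its 6 shared regions limma called 1 weaker in B10 and 2 in G7 (median log2 differences 0.25 and -0.21). At the start of Hoxc6 (chr15:103009194-103009942) the fold enrichment was 7.66, 8.65 and 8.64 in WT, 3.96, 5.65 and 4.99 in B10, and 3.5, 3.68 and 2.81 in G7, a log2 difference of -0.77 and -1.23 (SE 0.14, limma adjusted p = 0.0153 and 0.00493). With the block, another region at Hoxc6 and 1 at Hoxc12 were called stronger in B10 (0.50 and 0.56, limma adjusted p = 0.0404 and 0.0194).

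In the keratin cluster of chromosome 15, 8 of 24 genes had a region at a start, and both clones lost 3 and gained 0 of 14 regions, beside 4.37% lost among all regions. These 3 (at Krt75, Krt80 and Krt81) each held a peak in 2 WT libraries and in no other. With the block, a region at Krt5 was called weaker in B10 (-0.63, limma adjusted p = 0.00604). In the tumour necrosis factor receptor family, 5 of 6 genes had a region, and the 2 regions at Tnfrsf14 on chromosome 4 were lost in both clones, where each WT library and no KO library held a peak. Of the chemokine receptor genes on chromosome 9, 4 of 9 had a region and none of these was shared, with the region at Ccr3 lost in both clones (ranks of 28.7, 56.7 and 40.4 in WT). Of the interferon response list, 5 of 6 genes had a region. The region at the Agrn promoter given above, within 3 kb of a start of Isg15, was lost in both clones. Another region within 3 kb of a start of Isg15 held a peak in all 3 B10 libraries (ranks 42.6, 8.9 and 17.5) and in none of the G7 and WT libraries. Among neural development genes, 12 of 19 had a region (16 regions, 5 shared), with 0 gained and 2 lost in both clones, at Myt1 and at Agrn. The median log2 differences in B10 and G7 were 0.14 and 0.02 over 5 shared keratin regions, 0.22 and 0.14 over 4 of the tumour necrosis factor receptors, -0.08 and 0.03 over 4 of the interferon list and 0.01 and -0.04 over 5 of the neural list. The start of Zic5 on chromosome 14 held a peak in all 3 G7 libraries (fold enrichment 13.1, 11.8 and 12.3) and in none of the B10 and WT libraries.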

How the data were processed

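Libraries were made by Omni-ATAC and sequenced in pairs. According to the methods, the authors trimmed reads with Rfastp, aligned them to mm10 with Rsubread and called peaks per library with MACS2 in paired-end mode. The version of MACS2 is not given in the sources used here. The peak lists, as deposited by the authors, hold for each peak its fold enrichment over background (a ratio). They also hold the −log10 q-value that MACS2 gave the authors for the peak, which grows with the number of fragments too. Peak names in the deposited files mention an input, whereas the methods state none for ATAC-seq, so the background behind the ratio is uncertain. The lists hold no counts, so depth is unknown, no interval for counting error can be given and no count test was made.

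Peaks of chromosomes 1 to 19 were merged into 132893 regions, of which 95142 had a peak in at least 2 of 3 libraries of a line. A region of several peaks took its strongest. Genes came from GENCODE M21 and sequence from GRCm38, the assembly of mm10. The last 3 Mb were counted from the chromosome length, undetermined bases included. Presence calls followed the rule in the text. Strength was tested with limma 3.58.1 in R 4.3.3 on log2 fold enrichment centred on each library's median, over regions with a peak in all 9 libraries and over windows of 3 Mb with at least 5 such regions, at a Benjamini-Hochberg adjusted p of 0.05. Peak shares were compared by exact two-sided permutation. The presence of peaks per window against the rest of the chromosome was added after the data were seen. The limma step was tested on simulated data, in which the noise of each library was independent. That test does not cover deviations that libraries of the same replicate number share.

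Replicate numbers were treated as pairs only where the text names the replicate block or pairing by replicate number. For the same number, deviations from the line mean correlated across regions at 0.241 to 0.590 for all pairs of lines, and for other numbers at -0.480 to 0.246. The labels do not say what a number stands for. The fit without the block is given first, and the blocked value beside it where it changes a call or a count by more than 1.5 times.

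Named regions were the outermost and the strongest of each chromosome, the 6 with a peak in all KO and no WT libraries and the 6 in the reverse case with the highest lowest rank, the 6 largest rises and falls among regions called in both clones, and regions of the gene lists. Regions are named by the nearest protein-coding start site. The members and lists were chosen with earlier results of these data known. The sequences of the assembled chromosome tips are not reported here.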

Additional observations from a re-analysis of the deposited data

Results flagged for a closer look

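The share of peaks in the last 3 Mb moved in opposite directions in the clones, with every B10 library below and every G7 library above the WT libraries. The mean of B10 minus that of G7 was -0.197 percentage points, and this difference was not tested.

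The share of an end's regions with a peak, relative to the rest of its chromosome, differed between the clones at 8 of 19 ends by the limma contrast of B10 against G7 (Benjamini-Hochberg adjustment), while the same contrast called 281 of all 781 windows (36.0%). B10 exceeded G7 by 43.4 percentage points at the end of chromosome 17 (adjusted p = 1.97e-07), by 12.02 at that of chromosome 3 (adjusted p = 0.00497) and by 5.40 at that of chromosome 16 (adjusted p = 0.0267). On this relative measure, B10 lay below G7 at the ends of chromosome 7 (-22.4, adjusted p = 6.62e-06), chromosome 12 (-11.6, adjusted p = 0.0063), chromosome 14 (-11.2, adjusted p = 0.00636), chromosome 19 (-8.18, adjusted p = 0.00938) and chromosome 1 (-7.28, adjusted p = 0.0142). At the end of chromosome 1 the share itself was higher in B10 (83.7%) than in G7 (80.5%). As stated above, regions kept through the peaks of a single line raise the share of that line by construction. These p-values do not account for that. What lies behind these differences was not tested.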

How the results depend on the processing

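Of 155 values under alternatives other than a left-out library, 116 stayed near the value reported, 39 moved and none reversed. Counts and shares were held to a factor of 1.5, the differences in peak share to their sign, and the density ratio to its spread (1 SD) between libraries. The cause of the moves was not tested, except that stricter rules leave fewer regions to be called. For the last 1 Mb the density ratio was 1.18, the lost share 4.88% in B10, 4.24% in G7 and 2.06% in both clones, the share stronger in G7 1.20%, and 4 and 3 ends were called by presence in B10 and G7. For the last 5 Mb the density ratio was 1.34, and 1 end was called in G7 by strength and 1 by strength against the rest of the chromosome. The shares of all windows called for the last 1 Mb and 5 Mb are not given here, so these counts of ends stand without them. When a peak was required in all 3 libraries of one side, 3.19% were gained and 3.38% lost in B10, 2.46% and 2.79% in G7, and 0.808% and 1.47% in both. With ranks in place of fold enrichment, 4.86% were stronger and 6.94% weaker in B10, 7.94% and 3.08% in G7 and 2.29% and 1.43% in both. The shares of all shared regions under these ranks are not given here. By strength, 4 ends in B10 and 8 in G7 were called, beside 26.6% and 23.8% of all windows. Against the rest of the chromosome, 0 ends were called in B10 and 5 in G7, beside 11.3% and 10.3% of all windows. With the replicate block, the pairing gave 7.08% stronger and 6.01% weaker in B10, 4.58% and 3.08% in G7, 2.36% and 1.57% in both, and 1 end in B10 and 3 in G7 on either window measure; the peak shares kept their sign. It changed no other result given here beyond 1.5 times. Among the stronger shared regions, split at their median, 1.87% were stronger in B10, 0.865% in G7 and 0.576% in both. With a −log10 q-value of at least 5, 0.377% were weaker in both.

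With a library or a replicate number left out, 0 to 1 ends were called in B10 by strength. Against the rest of the chromosome the number was 0 to 0, and by presence it was 5 to 10. In the same order, those called in G7 numbered 0 to 2, 0 to 2 and 5 to 11. The shares of all windows called in these settings are not given here. In the order B10, G7 and both clones, gained shares ranged from 4.02% to 12.2%, 3.64% to 9.44% and 1.53% to 4.87%, and lost shares from 4.33% to 10.4%, 3.41% to 8.65% and 1.88% to 4.40%. Stronger shares ranged from 0% to 5.92%, 0% to 2.86% and 0% to 2.15%, and weaker shares from 0% to 5.92%, 0% to 1.82% and 0% to 0.975%. The density ratio stayed between 1.26 and 1.29, and the difference in peak share between -0.152 and -0.137 points in B10 and 0.0389 and 0.0738 in G7. Depth is unknown, so a peak that is missing may be one that was not detected, and presence calls move with the number of fragments.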

Other observations

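From the end inwards, the share of regions lost in both clones was 1.10% in the first 0.5 Mb (3 of 272) and 2.57%, 4.52%, 5.34%, 4.09% and 3.44% in the next 5 bins of 0.5 Mb, beside 4.37% of all regions. The share gained in G7 was 8.46% in the first 0.5 Mb (23 of 272) and 6.92% in the next, beside 5.61% of all regions and 9.09% from 5.5 to 6 Mb. These bins were looked at after the data were seen, and no test was made.

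The number of TTAGGG units in the last 1 kb of assembled sequence ranged from 0 on chromosome 4 to 114 on chromosome 14. It is a property of the assembly and does not measure the telomeres of these cells.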
